A study of Mus musculus with 12 samples.

Results

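The kidney transcription factors Hnf4a, Nr1h4 and Maf and the metabolic regulators Ppara, Ppargc1a, Esrra and Esrrg were followed through adenine-induced chronic kidney disease (CKD) and colchicine treatment. They were taken by gene symbol from gene-level counts of mouse kidney, and all 7 of 7 were found among 40213 listed genes. All 7 also passed the filter on low counts, with the lowest single value at 312 counts (Esrra in CKD replicate 3), so no member was lost to it. Kidneys of C57BL/6 mice formed 3 groups of 4 libraries. The colchicine group received colchicine at 0.3 mg/kg per day intraperitoneally on an adenine diet, the CKD group received saline intraperitoneally on a 2% adenine diet, and the control group received saline intraperitoneally on normal diet. The labels give the 4 colchicine libraries different diets, with 2, 3, 4 and 5% adenine for replicates 1, 2, 3 and 4, so in replicates 2 to 4 colchicine and the labelled diet cannot be told apart. These percentages rise in step with the replicate number, while the design text describes a single adenine model. Whether they are the diets fed is not known, and fits that use them depend on the labels as written. Colchicine on normal diet was not analysed here, and the labels used here give no age, sex or duration of feeding. Each library is labelled a biological replicate without an animal being named, and p-values cover only the spread among these libraries.

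HNF4 alpha (Hnf4a) is a nuclear receptor that switches on transporters and enzymes of the mature proximal tubule, the segment that reclaims most of the filtered solutes. FXR (Nr1h4) is the bile acid receptor, and c-Maf (Maf) is a leucine zipper factor that is also known from macrophages, T cells and the lens. The proximal tubule burns fatty acids. PPAR alpha (Ppara) activates the genes of that oxidation, and the coactivator PGC-1 alpha (Ppargc1a), working through the estrogen-related receptors (Esrra and Esrrg), activates those of mitochondrial respiration. HNF4 alpha binds DNA as a homodimer, PPAR alpha binds with the retinoid X receptor RXR alpha, and FXR mostly does the same.

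Library totals ran between 22200909 and 38253100 counts. Mitochondrially encoded transcripts took 14.6 to 21.8% of counts in colchicine libraries, 16.7 to 17.3% in CKD libraries and 41.5 to 46.7% in control libraries, so the scaling between libraries matters. Levels are given as CPM, counts divided by library size after TMM (trimmed mean of M-values) scaling, and a gene was called at a Benjamini-Hochberg adjusted p below 0.05 in edgeR's quasi-likelihood test over 17841 genes. For CKD against control this gave 6076 genes higher and 5952 lower, against 13197 and 1850 with library totals only and 9546 and 3469 with totals that leave mitochondrial transcripts out. Over all genes, the median log2 fold change in that comparison was 0.04 with TMM, 1.05 with library totals and 0.48 without mitochondrial transcripts. For colchicine against CKD 1212 genes were higher and 1470 lower, against 1764 and 1185 with upper-quartile scaling. For colchicine against control 6612 were higher and 5964 lower, against 8134 and 4849 with upper-quartile scaling, 13762 and 1953 with library totals and 10366 and 3477 with totals that leave mitochondrial transcripts out. The directions below are relative to TMM. All 22 genes of a proximal tubule list were detected in every group, and their summed level was 1670 to 3410 CPM in colchicine libraries, 3470 to 4560 CPM in CKD libraries and 48600 to 52300 CPM in control libraries. In bulk tissue, fewer proximal tubule cells and less transcript per cell cannot be told apart.

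In CKD against control, all 7 regulators were lower with TMM, beside 33.4% of all genes called lower, 34.1% called higher and 66.2% whose groups did not overlap. All 7 were also called lower there with upper-quartile scaling and with totals that leave mitochondrial transcripts out, but not with library totals only. Genes called lower numbered 5092 of 17841 with upper-quartile scaling and 3469 of 17560 without mitochondrial transcripts. In colchicine against CKD, 5 of the 7 were lower (Ppara, Hnf4a, Nr1h4, Ppargc1a and Maf) and 0 higher, beside 8.24% of all genes called lower, 6.79% called higher and 18.2% not overlapping. The other members, Esrra and Esrrg, were not called between colchicine and CKD. In colchicine against control all 7 were again lower, beside 33.4% of genes called lower, 37.1% called higher and 62.5% not overlapping. These comparisons share libraries: the CKD libraries stand in 2 of them, as do the control libraries.

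**Figure D1:**
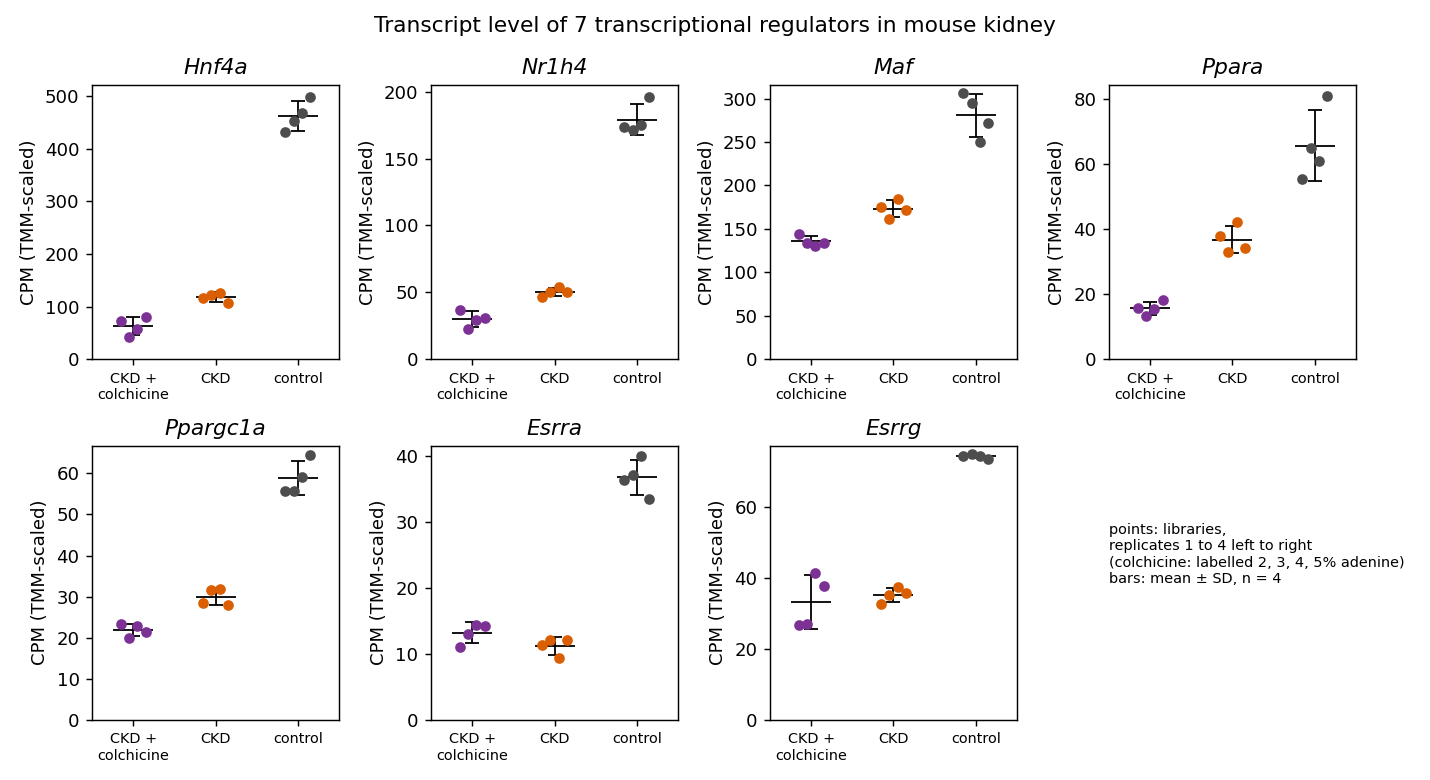
Transcript level (CPM, TMM-scaled, linear axis from 0) of each regulator in the colchicine, CKD and control libraries. Points are libraries and bars are mean ± SD (n = 4). With TMM the control libraries lie above both adenine groups for every gene, and the colchicine libraries lie below the CKD libraries for Hnf4a, Nr1h4, Maf, Ppara and Ppargc1a, whereas the adenine groups overlap for Esrra and Esrrg.

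Among the identity factors, Hnf4a had 73.3, 42.4, 56.9 and 79.5 CPM in colchicine replicates 1 to 4, against 116, 123, 126.5 and 106 CPM in the CKD libraries and 432, 453, 469 and 499 CPM in the control libraries. The 3 groups did not overlap. Hnf4a averaged 118 ± 9.07 CPM in CKD and 463 ± 28.4 CPM in control (SD, n = 4), which is 3.93 times lower in CKD (log2 fold change -1.98 ± 0.15, SE; edgeR adjusted p = 2.54e-08). It averaged 63.0 ± 16.7 CPM with colchicine, 1.87 times lower than in CKD (log2 -0.90 ± 0.15; edgeR adjusted p = 0.00289). That log2 fold change ran from -1.002 to -0.69 over the alternative fits, single-library omissions aside. The spread of Hnf4a was wider with colchicine, where the coefficient of variation was 26.5%, than in CKD (7.7%) or control (6.14%), and this difference in spread was not tested.

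Nr1h4, the bile acid receptor, had 36.9, 22.2, 29.2 and 30.6 CPM in colchicine replicates 1 to 4, against 46.3, 49.9, 54.1 and 49.9 CPM in the CKD libraries and 173.5, 172, 175 and 196.5 CPM in the control libraries. Here too the 3 groups were separate, with colchicine replicate 2 the lowest library as it was for Hnf4a. Nr1h4 was 3.58 times lower in CKD than in control (log2 -1.84 ± 0.12; edgeR adjusted p = 2.5e-09) and 1.68 times lower with colchicine than in CKD (log2 -0.75 ± 0.12; edgeR adjusted p = 0.00195). Over the alternative fits, single-library omissions aside, its log2 fold change between colchicine and CKD ran from -0.776 to -0.445. Replicate 1, the colchicine library labelled 2% adenine as in CKD, had the highest colchicine value, 36.9 CPM. Across the 12 libraries, the centred log2 profiles of Hnf4a and Nr1h4 differed by a root mean square of 0.17, the smallest of the 21 pairs among the 7 regulators, while the widest pair, Hnf4a and Maf, differed by 0.81.

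Promoter sequences are shown for Hnf4a and Nr1h4 because their profiles were the most alike and because Hnf4a has alternative promoters that gene-level counts do not separate, and for Ppara and Ppargc1a because they hold the motif matches. They come from RefSeq (GRCm38.p6, whereas the counts were made on GRCm39) and run from 250 bases before to 50 bases after each start, 5′ to 3′ on the gene's strand. Capitals mark TGACG or its reverse complement, an arm of the cyclic AMP response element. The Hnf4a windows lie at chr2:163506607-163506906 and chr2:163546905-163547204 on the plus strand, the Nr1h4 window at chr10:89506609-89506908 on the minus strand, the Ppara window at chr15:85735526-85735825 on the plus strand and the Ppargc1a window at chr5:51567676-51567975 on the minus strand.
Hnf4a upstream promoter: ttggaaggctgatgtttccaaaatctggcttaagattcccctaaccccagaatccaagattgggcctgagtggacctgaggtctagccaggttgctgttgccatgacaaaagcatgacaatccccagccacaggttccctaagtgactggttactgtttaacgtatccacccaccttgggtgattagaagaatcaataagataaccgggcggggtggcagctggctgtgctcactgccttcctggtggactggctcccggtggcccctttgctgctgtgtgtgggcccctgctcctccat
Hnf4a downstream promoter: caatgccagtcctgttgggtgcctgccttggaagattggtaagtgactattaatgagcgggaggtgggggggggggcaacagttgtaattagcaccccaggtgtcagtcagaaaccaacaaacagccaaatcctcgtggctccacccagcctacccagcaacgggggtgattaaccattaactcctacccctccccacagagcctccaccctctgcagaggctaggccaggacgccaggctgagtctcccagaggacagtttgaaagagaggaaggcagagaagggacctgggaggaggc
Nr1h4 promoter: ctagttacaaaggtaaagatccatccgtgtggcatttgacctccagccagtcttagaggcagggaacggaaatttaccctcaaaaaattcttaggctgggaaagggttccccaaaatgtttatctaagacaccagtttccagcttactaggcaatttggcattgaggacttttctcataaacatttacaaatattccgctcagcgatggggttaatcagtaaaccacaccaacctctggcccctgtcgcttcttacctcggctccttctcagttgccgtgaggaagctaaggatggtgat
Ppara promoter: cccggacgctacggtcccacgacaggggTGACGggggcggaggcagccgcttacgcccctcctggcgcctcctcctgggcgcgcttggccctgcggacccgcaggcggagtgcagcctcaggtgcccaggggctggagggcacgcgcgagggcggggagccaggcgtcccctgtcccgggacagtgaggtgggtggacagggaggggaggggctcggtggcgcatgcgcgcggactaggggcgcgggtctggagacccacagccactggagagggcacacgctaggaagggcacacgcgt
Ppargc1a promoter: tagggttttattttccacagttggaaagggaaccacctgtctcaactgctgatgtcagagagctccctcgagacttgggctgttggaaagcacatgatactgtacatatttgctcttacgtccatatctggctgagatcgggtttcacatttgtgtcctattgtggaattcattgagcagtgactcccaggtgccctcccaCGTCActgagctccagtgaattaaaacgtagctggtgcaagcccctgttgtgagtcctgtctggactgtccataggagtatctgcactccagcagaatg
The arm begins 222 bases before the start in the Ppara window and 49 bases before the start in the Ppargc1a window, and it is held by 20.8% of all 32851 windows. It was not found in the Hnf4a and Nr1h4 windows. TGCTGA, an arm of the Maf recognition element present in 19.5% of windows, matched in the Ppargc1a window, 204 bases before the start. No other match of these arms was found in the 10 windows of the 6 regulators in the table (Maf is not among them). Searched on both strands, an HNF4 site CAAAGTCCA and the estrogen-related receptor core AAGGTCA, which occur in 0.475 and 4.72% of all windows, gave no match in these 10. Nor did the direct repeat of AGGTCA with 1 base between copies (0.0396%), which contains the receptor core where that base is A, or the inverted repeat of AGGTCA with 1 base between copies (0.00913%).

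Hnf4g, the close relative of Hnf4a, was lower in CKD (log2 -1.32 ± 0.15; edgeR adjusted p = 1.82e-06), though not called with library totals only (log2 -0.32; edgeR adjusted p = 0.0909), and lower again with colchicine, at 2.81 ± 0.46 CPM against 4.59 ± 0.18 CPM in CKD (log2 -0.71 ± 0.16; edgeR adjusted p = 0.0103). Of 14 tested identity and hormone-responsive factors of renal epithelium, among them Hnf4g, 10 were lower and 3 higher in CKD, which became 4 lower and 6 higher with library totals only. Over all genes, 33.4% were lower and 34.1% higher in CKD with TMM. Vdr, the vitamin D receptor, and Thrb, a thyroid hormone receptor, were among those lower in CKD (log2 -1.50 ± 0.12 and -1.43 ± 0.08). Colchicine libraries were lower than CKD libraries for 2 of the 14, Hnf4g and Vdr (log2 -0.46 ± 0.12; edgeR adjusted p = 0.0204), beside 8.24% of all genes.

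Maf had 144, 133, 131 and 134 CPM in colchicine replicates 1 to 4, against 175, 162, 184 and 171 CPM in CKD and 307, 294, 250.4 and 272 CPM in control. The 3 groups did not overlap, and its log2 fold change in CKD against control was the smallest in size of the 7. Maf was 1.62 times lower in CKD than in control with TMM (log2 -0.70 ± 0.08; edgeR adjusted p = 8.34e-07) and higher with library totals only (log2 0.32 ± 0.07; edgeR adjusted p = 0.000615), so its direction depends on the scaling. It was 1.28 times lower with colchicine than in CKD (log2 -0.35 ± 0.08; edgeR adjusted p = 0.00916), also with library totals (log2 -0.33 ± 0.07; edgeR adjusted p = 0.00869). The call was lost in both fits that bear on the labelled diet, the slope on the labelled percentages read at 2% (log2 -0.30; edgeR adjusted p = 0.110) and colchicine replicate 1 as the only colchicine library (log2 -0.27; edgeR adjusted p = 0.223). Macrophages also express Maf, and their 12 markers, all detected in every group, summed to 1420 to 2040 CPM with colchicine, 2050 to 2120 CPM in CKD and 191 to 211 CPM in control. The 9 T and NK cell markers listed in the files summed to 29.5 to 37.3 CPM with colchicine, 44.7 to 62.7 CPM in CKD and 7.52 to 9.12 CPM in control. The part of these cells in the Maf level was not tested.

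Genes tied to c-Maf went in both directions in CKD. Gpx3, the secreted glutathione peroxidase made by the proximal tubule, averaged 8889 ± 799 CPM in CKD and 26170 ± 2512 CPM in control (log2 -1.56 ± 0.16; edgeR adjusted p = 5.19e-07). With colchicine it averaged 9072 ± 2441 CPM and was not called against CKD (log2 0.03 ± 0.16; edgeR adjusted p = 0.911). Macrophage genes of the list were higher in CKD, including the complement genes C1qb (log2 3.81 ± 0.11) and C1qc (log2 3.89 ± 0.16) and the prostaglandin synthase Hpgds (log2 3.59 ± 0.16). Of 10 tested c-Maf-linked genes, 7 were higher and 3 lower in CKD, also with library totals. Over all genes, 34.1% were higher and 33.4% lower in CKD with TMM, and 8.24% were lower with colchicine than in CKD. With colchicine, 2 were lower than in CKD, Hpgds (log2 -0.51 ± 0.12; edgeR adjusted p = 0.0165) and the mannose receptor Mrc1 (log2 -0.58 ± 0.17; edgeR adjusted p = 0.0417), a call lost for Mrc1 with library totals only (edgeR adjusted p = 0.0689). Mrc1 and the C1q genes also stand in the macrophage list.

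Ppara, the receptor for fatty acids, had 15.7, 13.3, 15.4 and 18.1 CPM in colchicine replicates 1 to 4, against 37.9, 32.98, 42.0 and 34.2 CPM in CKD and 55.5, 64.9, 61.1 and 81.0 CPM in control. Every colchicine library was below every CKD library, and every CKD library was below every control library. Ppara was 1.78 times lower in CKD than in control (log2 -0.84 ± 0.12; edgeR adjusted p = 1.78e-05), a call lost with library totals only, where it stood at 0.17 ± 0.12 (edgeR adjusted p = 0.208). It was 2.35 times lower with colchicine than in CKD (log2 -1.24 ± 0.12; edgeR adjusted p = 8.45e-05). That change had the 11th smallest p of 17841 genes and was larger in size than 98.4% of all fold changes in the comparison.

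Ppargc1a had 23.2, 19.97, 22.8 and 21.5 CPM with colchicine, against 28.5, 31.6, 31.9 and 28.1 CPM in CKD and 55.7, 55.8, 59.2 and 64.5 CPM in control. Its 3 groups were separate, with coefficients of variation of 6.75, 6.63 and 7.07% in the colchicine, CKD and control groups. It was 1.96 times lower in CKD (log2 -0.97 ± 0.08; edgeR adjusted p = 2.43e-08), but not with library totals only (log2 0.04 ± 0.09; edgeR adjusted p = 0.701). Against CKD, colchicine libraries were 1.37 times lower (log2 -0.46 ± 0.08; edgeR adjusted p = 0.00308). The call held in the slope fit read at 2% adenine and was lost with colchicine replicate 1 as the only colchicine library (log2 -0.37; edgeR adjusted p = 0.0669). Its relative Ppargc1b, a second coactivator of the same receptors, was lower in CKD (log2 -1.68 ± 0.18; edgeR adjusted p = 1.18e-06). With colchicine Ppargc1b was not called against CKD (log2 0.43 ± 0.18; edgeR adjusted p = 0.117). PGC-1 alpha is also abundant in brown fat, which can be taken with the kidney. The 7 fat markers summed to 78.2 to 244 CPM with colchicine, 51.4 to 236 CPM in CKD and 162 to 371 CPM in control. Among them, Fabp4 averaged 156, 103 and 198 CPM in the colchicine, CKD and control groups. The brown fat gene Ucp1 averaged 4.44 ± 5.32, 2.83 ± 5.30 and 7.88 ± 7.68 CPM. The part of fat in the Ppargc1a level was not tested.

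The estrogen-related receptors were lower in CKD and not called between colchicine and CKD. Esrra had 11, 13.04, 14.4 and 14.3 CPM in colchicine replicates 1 to 4, against 11.3, 12.0, 9.29 and 12.2 CPM in CKD and 36.3, 37.1, 40.0 and 33.4 CPM in control. The adenine groups overlap and lie far below control. Esrra was 3.28 times lower in CKD than in control (log2 -1.71 ± 0.11; edgeR adjusted p = 1.73e-09). With colchicine it was not called against CKD (log2 0.24 ± 0.11, 95% interval 0.01 to 0.46; edgeR adjusted p = 0.141), although without colchicine replicate 1 it was called higher (log2 0.31; edgeR adjusted p = 0.0199). Esrra overlaps the protein-coding gene Trmt112 on the opposite strand in GENCODE M21. No label states whether counting used strand, so reads from the shared stretch may not have been separated. Trmt112 was lower in CKD than in control with TMM (log2 -0.39 ± 0.07; edgeR adjusted p = 0.000167), higher with library totals only (log2 0.63 ± 0.08; edgeR adjusted p = 1.57e-06), and higher with colchicine than in CKD (log2 0.24 ± 0.07; edgeR adjusted p = 0.0320). Its part in the Esrra values was not tested.

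Esrrg had 26.6, 27.01, 41.3 and 37.7 CPM in colchicine replicates 1 to 4, against 32.5, 35.1, 37.2 and 35.8 CPM in CKD and 74.1, 74.7, 74.3 and 73.5 CPM in control. Colchicine replicates 1 and 2, labelled 2 and 3% adenine, lay below all CKD libraries, and replicates 3 and 4, labelled 4 and 5%, lay above them. Esrrg was 2.11 times lower in CKD than in control (log2 -1.08 ± 0.12; edgeR adjusted p = 1.43e-06), a call lost with library totals only (log2 -0.07 ± 0.12; edgeR adjusted p = 0.614). Against CKD, colchicine libraries were not called (log2 -0.09 ± 0.12, 95% interval -0.34 to 0.17; edgeR adjusted p = 0.638). Read at the 2% label shared with CKD, from a slope on the labelled percentages, it was lower with colchicine (log2 -0.43; edgeR adjusted p = 0.0435).

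**Figure D2:**
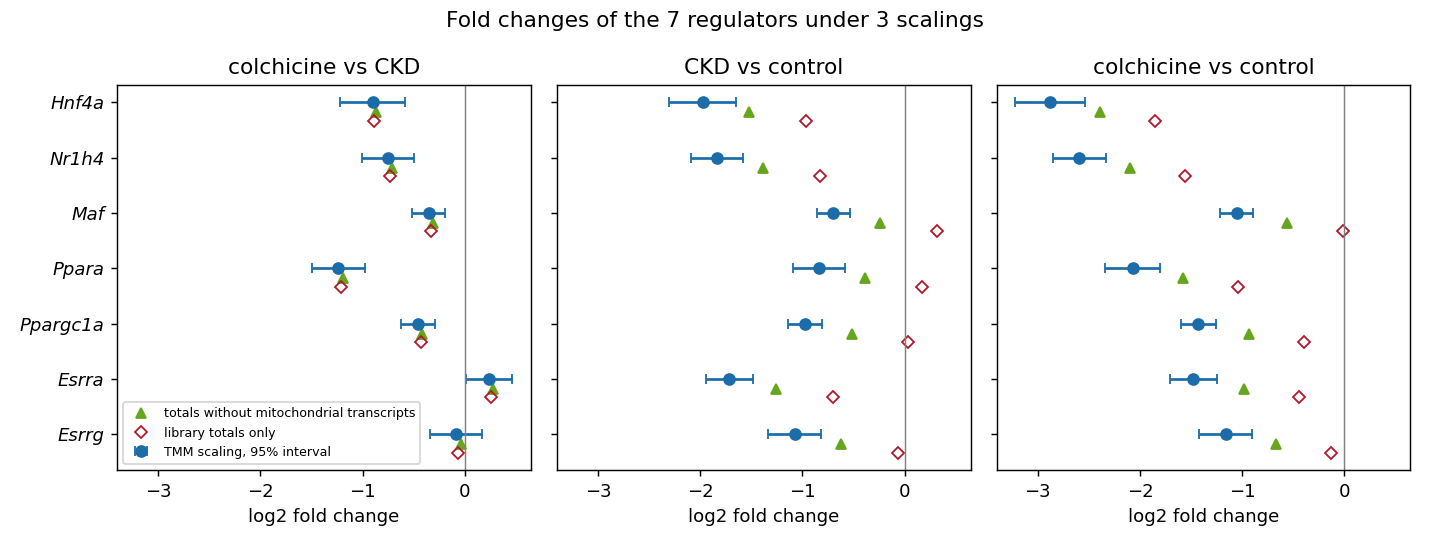
Log2 fold change of each regulator in colchicine against CKD, CKD against control, and colchicine against control, with TMM scaling (circles, 95% interval), library totals without mitochondrial transcripts (triangles) and library totals only (diamonds). The scalings nearly coincide between the adenine groups, and against control both kinds of totals shift all 7 genes to the right. Only library totals take Maf, Ppara and Ppargc1a past 0 in CKD.

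Set against control, colchicine libraries had the widest gap for Hnf4a (log2 -2.88 ± 0.16; edgeR adjusted p = 4.93e-10), followed by Nr1h4 (log2 -2.59 ± 0.12; edgeR adjusted p = 6.61e-11) and Ppara (log2 -2.07 ± 0.12; edgeR adjusted p = 9.32e-10). Esrra, Ppargc1a, Esrrg and Maf stood at -1.48 ± 0.11, -1.43 ± 0.08, -1.16 ± 0.12 and -1.05 ± 0.08. With library totals only, Maf and Esrrg were no longer called (log2 -0.01 and -0.13), and the other 5 were lower. Of all 17841 genes, 1953 were lower and 13762 higher with that scaling.

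A ratio between genes of the same library is nearly free of the scaling between libraries. Each regulator was therefore set against the mean log2 CPM of the 22 proximal tubule genes, which include no regulator, and groups were compared by an exact two-sided permutation test. With 4 libraries against 4, the smallest possible p is 0.0286. In CKD all 7 ratios were higher than in control, with all 4 CKD libraries above all 4 control libraries (exact p = 0.0286 each, 0.0375 adjusted over 21 tests). Hnf4a rose least relative to the tubule genes, by 1.22 log2 units, followed by Nr1h4 at 1.36 and Esrra at 1.49. Maf rose most, by 2.505, and Ppara, Ppargc1a and Esrrg rose by 2.37, 2.23 and 2.12. The 22 tubule genes had a median log2 fold change of -3.28 in CKD, beside 0.04 over all genes. A gene that did not change would therefore also have a higher ratio. These p-values do not set the 7 regulators apart from other genes, whose ratios were not tested. The direction depends on the list: against the PPAR alpha targets in its place, the ratios of Hnf4a, Nr1h4 and Esrra differed by -0.54, -0.40 and -0.28 in CKD against control. Genes of the list such as the phosphate transporter Slc34a1 (log2 -4.01 ± 0.19), the peptidase Ggt1 (log2 -3.71 ± 0.15) and the urate transporter Slc22a12 (log2 -4.79 ± 0.23) were all lower in CKD.

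The ratios of Esrra and Esrrg were higher with colchicine than in CKD, although the level of neither gene was called in that comparison. Esrra had log2 ratios of -2.11, -1.35, -1.63 and -2.33 in colchicine replicates 1 to 4, against -2.83, -2.63, -3.45 and -2.84 in CKD, a difference of 1.08 (exact p = 0.0286, 0.0375 adjusted). Esrrg had -0.84, -0.31, -0.11 and -0.94 with colchicine, against -1.31, -1.09, -1.46 and -1.28 in CKD, a difference of 0.73 (exact p = 0.0286, 0.0375 adjusted). Both receptors were higher relative to tubule genes in every colchicine library than in any CKD library. The call for Esrra was lost without CKD replicate 3 (difference 0.91, adjusted exact p = 0.0800) or 4 (1.11, 0.0706), and that for Esrrg without any single CKD library (0.68 to 0.80, adjusted exact p = 0.0706 to 0.106). The ratios of Hnf4a and Nr1h4 differed by -0.09 and 0.08 (exact p = 0.514 and 0.800), those of Ppargc1a and Maf by 0.39 and 0.49 (exact p = 0.171 and 0.114), and that of Ppara by -0.38 (exact p = 0.0571, 0.0705 adjusted). Of the 22 tubule genes, 12 were lower with colchicine than in CKD and 0 higher, with a median log2 fold change of -0.84 beside 0.03 over all genes. Examples are the gluconeogenic phosphatase G6pc (log2 -1.58 ± 0.28) and the cytochrome Cyp2e1 (log2 -1.42 ± 0.29). With the tubule genes lower, a gene that did not change would also have a higher ratio. The higher ratios of Esrra and Esrrg therefore do not set them apart from other genes.

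**Figure D3:**
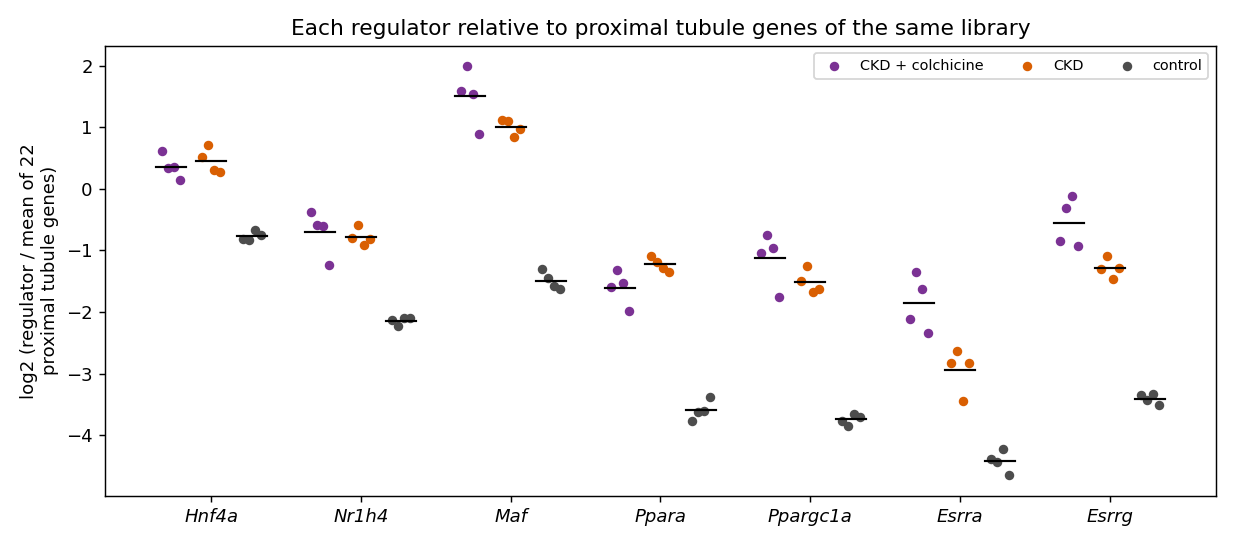
Log2 ratio of each regulator to the mean of 22 proximal tubule genes in the same library, for colchicine, CKD and control libraries (points; lines are group means, n = 4). All 7 ratios are higher in both adenine groups than in control, and those of Esrra and Esrrg are higher in every colchicine library than in every CKD library. The tubule genes had a median log2 fold change of -3.28 in CKD against control and -0.84 in colchicine against CKD. The ratio of a gene that did not change would thus rise as well.

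Paired regulators also moved by unlike amounts. The log2 ratio of Esrra to Esrrg averaged -1.65 ± 0.23 in CKD and -1.02 ± 0.10 in control (SD, n = 4), a difference of -0.64 (exact permutation p = 0.0286, 0.0429 adjusted over 6 tests). With colchicine it averaged -1.31 ± 0.20, higher than in CKD by 0.34 (exact permutation p = 0.0286, 0.0429 adjusted). With any 1 CKD library left out, the difference between CKD and control was -0.68 to -0.52 and its unadjusted exact p stayed at 0.0286, the smallest possible, while the adjusted p of 0.0571 moved with the other tests of the family. The difference between colchicine and CKD was then 0.23, without CKD replicate 3, to 0.39 (unadjusted exact p = 0.0571), and 0.26 without colchicine replicate 2 (unadjusted exact p = 0.0857). The ratio of Ppara to Hnf4a averaged -1.68 ± 0.14 in CKD and -2.83 ± 0.16 in control, a difference of 1.15 (exact permutation p = 0.0286, 0.0429 adjusted), so Hnf4a was reduced more than Ppara. It was 1.12 to 1.22 with any 1 CKD library left out, at the same unadjusted exact p of 0.0286 and an adjusted p of 0.0571. In colchicine against CKD that ratio differed by -0.29 (exact permutation p = 0.0857, also adjusted), at -1.97 ± 0.25 with colchicine. Ratios between genes are read here only as differences between groups, since CPM is not per length.

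Rxra, the RXR that pairs with PPAR alpha and FXR, averaged 52.7 ± 1.78 CPM in CKD and 93.0 ± 4.44 CPM in control (log2 -0.82 ± 0.06; edgeR adjusted p = 2.3e-08), and it was higher with library totals only (log2 0.19; edgeR adjusted p = 0.0182). With colchicine Rxra averaged 51.2 ± 3.01 CPM and was not called against CKD (log2 -0.04 ± 0.06; edgeR adjusted p = 0.675). Of 20 cofactors, partners and competitors, 7 were higher and 8 lower in CKD, which became 15 and 2 with library totals only. Over all genes, 34.1% were higher and 33.4% lower with TMM, and 13197 and 1850 of 17841 genes with library totals. The cofactor counts were near these shares. Lpin1, a coactivator of PPAR alpha with PGC-1 alpha in liver, was lower with TMM (log2 -1.18 ± 0.09) and not called with library totals (log2 -0.17; edgeR adjusted p = 0.132). Colchicine libraries were higher than CKD libraries for 2 of the 20, beside 6.79% of all genes. These were the COUP-TF family receptors Nr2f1 (log2 0.61 ± 0.15; edgeR adjusted p = 0.0150) and Nr2f6 (log2 0.29 ± 0.08; edgeR adjusted p = 0.0266). The coactivator Ncoa2 was lower (log2 -0.40 ± 0.11; edgeR adjusted p = 0.0294), though not with library totals only (log2 -0.38; edgeR adjusted p = 0.0589).

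Of 14 tested relatives of the 7 regulators, 3 were higher and 7 lower in CKD, which became 9 and 2 with library totals only. Over all genes, 34.1% were higher and 33.4% lower in CKD with TMM. Maff, a small relative in the leucine zipper family of Maf, was higher in CKD (log2 2.27 ± 0.16). Nr1h3, the liver X receptor alpha, was lower (log2 -1.58 ± 0.11). Ppard stood at -0.31 ± 0.12 (edgeR adjusted p = 0.0354) in CKD and was higher with library totals only (log2 0.71), and Pparg was not called (log2 0.07 ± 0.25; edgeR adjusted p = 0.813). With colchicine 1 of the 14 was lower than in CKD, Hnf4g, and 0 were higher, beside 8.24 and 6.79% of all genes.

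Textbook targets of the metabolic regulators, of HNF4 alpha and of FXR were lower more often than higher in both comparisons. Over all genes, 33.4% were lower and 34.1% higher in CKD, and 8.24% were lower and 6.79% higher with colchicine than in CKD. Of 20 HNF4 alpha targets 17 were lower and 1 higher in CKD, with a median log2 fold change of -1.89, and 12 and 4 with library totals only. The list shares 6 of its 20 genes with the proximal tubule list, all 6 lower in CKD, and of the other 14 genes 11 were lower and 1 higher (median -1.60). Abat, which breaks down GABA, was among the lower ones (log2 -2.78 ± 0.15). With colchicine 13 of the 20 were lower than in CKD and 0 higher, with a median of -0.82, and 3 of these 13 are among the 6 shared genes. The protease inhibitor Serpina1a had 27.9 ± 2.08 CPM with colchicine and 107 ± 15.7 CPM in CKD (log2 -1.93 ± 0.15; edgeR adjusted p = 2.61e-05), and its reads may be shared with close paralogs. Apoa4, an apolipoprotein, and Ttr, the thyroid hormone carrier, were lower too (log2 -1.34 ± 0.15 and -1.36 ± 0.19).

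Of 26 tested PPAR alpha targets 20 were lower and 2 higher in CKD, with a median of -1.72, and 17 and 6 with library totals only. The list did not move as one. Pdk4 averaged 35.0 ± 5.54 CPM in CKD and 21.0 ± 4.85 CPM in control, and Angptl4 averaged 61.5 ± 15.2 and 37.7 ± 7.09 CPM. Cpt1a, which admits fatty acids to mitochondria, averaged 130 ± 8.43 CPM in CKD and 278 ± 34.0 CPM in control (log2 -1.10 ± 0.10), and with library totals it was not called (log2 -0.09; edgeR adjusted p = 0.418). Acadm, a mitochondrial dehydrogenase of fatty acid oxidation, averaged 166 ± 12.3 CPM in CKD and 1651 ± 165 CPM in control (log2 -3.31 ± 0.10; edgeR adjusted p = 1.48e-12). Against CKD, 13 of the 26 were lower with colchicine and 0 higher, with a median of -0.44. Acadm fell to 112 ± 11.5 CPM with colchicine, against 166 ± 12.3 CPM in CKD (log2 -0.57 ± 0.10; edgeR adjusted p = 0.00278), and Cpt1a fell to 92.3 ± 9.23 CPM, against 130 ± 8.43 CPM (log2 -0.49 ± 0.10; edgeR adjusted p = 0.00610). Ehhadh, a peroxisomal enzyme, was lower by a wider margin (log2 -1.19 ± 0.20; edgeR adjusted p = 0.00365). Fgf21 did not pass the filter on low counts.

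Of 20 genes of mitochondrial biogenesis and respiration tied to PGC-1 alpha and the estrogen-related receptors, 17 were lower and 1 higher in CKD, with a median of -1.06, and 9 and 6 with library totals only. The mitochondrial superoxide dismutase Sod2 and the complex II subunit Sdhb were among them (log2 -2.06 ± 0.08 and -1.88 ± 0.08). Tfam, which packages and transcribes mitochondrial DNA, averaged 32.9 ± 1.01 CPM in CKD and 68.2 ± 2.11 CPM in control (log2 -1.05 ± 0.07), and with library totals it was not called (log2 -0.04; edgeR adjusted p = 0.601). Colchicine libraries were lower than CKD libraries for 9 of the 20, with a median of -0.21. The complex I subunit Ndufs1 and the ATP synthase subunit Atp5b were lower by 0.54 ± 0.10 and 0.43 ± 0.09 (log2; edgeR adjusted p = 0.00370 and 0.00767).

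Of 9 tested FXR targets 7 were lower and 0 higher in CKD, with a median of -1.68, and 5 and 1 with library totals only. Slc51b, part of the bile acid exporter, averaged 5.36 ± 0.75 CPM in CKD and 17.1 ± 1.71 CPM in control (log2 -1.68 ± 0.14; edgeR adjusted p = 3.66e-08). With colchicine 4 of the 9 were lower than in CKD and 0 higher, with a median of -0.74. Slc51b fell to 3.23 ± 0.54 CPM with colchicine, against 5.36 ± 0.75 CPM in CKD (log2 -0.74 ± 0.14; edgeR adjusted p = 0.00598). The organic anion pump Abcc2 and the collecting duct water channel Aqp2 were likewise lower with colchicine (log2 -0.98 ± 0.22 and -1.19 ± 0.15). Nr0b2, the small heterodimer partner induced by FXR, had 0.29 ± 0.10 CPM in CKD and 1.07 ± 0.33 CPM in control (log2 -1.86 ± 0.37; edgeR adjusted p = 0.000405), and it was not called between colchicine and CKD (log2 0.48 ± 0.38; edgeR adjusted p = 0.387). The other 7 of the 16 listed targets, mostly of liver and gut, did not pass the filter on low counts.

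**Figure D4:**
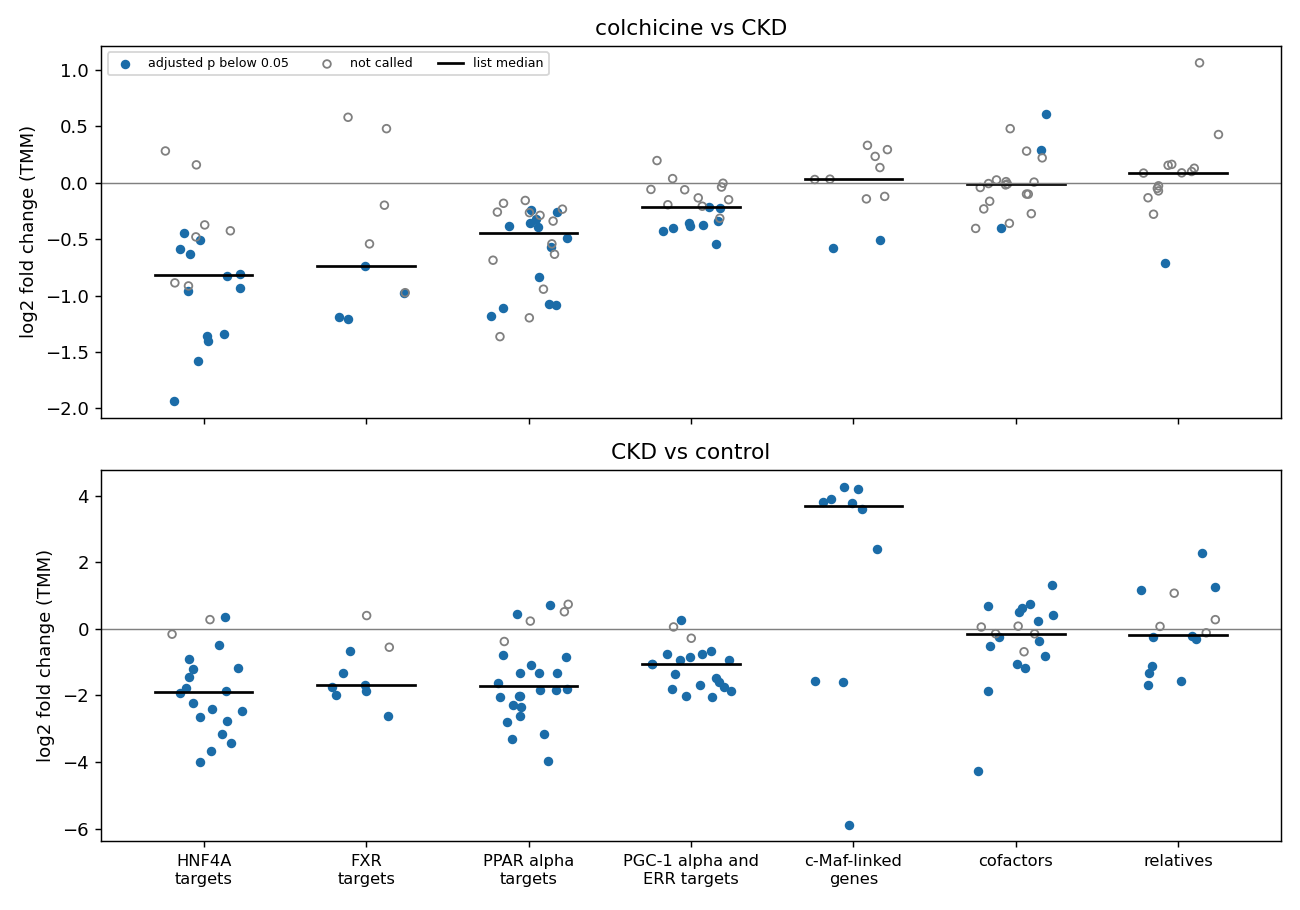
Log2 fold changes (TMM) of listed targets, cofactors and relatives of the 7 regulators in colchicine against CKD and in CKD against control. Filled points passed an adjusted p below 0.05, open points did not, and lines are list medians, which lie below 0 for the HNF4A, FXR, PPAR alpha and PGC-1 alpha lists in both panels. With library totals only, the CKD against control medians of cofactors and relatives are above 0 (0.86 and 0.84).

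Genes with the profiles most like each regulator were found by the root mean square difference of centred log2 CPM over the 12 libraries among 13277 candidates with a mean count of 50 or more. Prkaa2, a catalytic subunit of the energy sensor AMPK, was the closest gene to both Hnf4a (0.13) and Nr1h4 (0.07), averaging 23.2 CPM with colchicine, 38.8 CPM in CKD and 148 CPM in control. The closest to Ppargc1a included Mfn1, a mitochondrial fusion protein, and Cpt1a, at 0.09 each. The closest to Maf were the lysosomal genes Tpp1 and Lamp1, at 0.07 each. Esrra lay closest to Smpd2 (0.10) and to the mitochondrial ribosome gene Mrpl28 (0.12), and Esrrg to Mrps35 (0.10), of the same ribosome, and to Decr2, a peroxisomal reductase (0.11). Ppara had no such close match: its nearest gene was the thiamine transporter Slc19a3 at 0.20, with 4.35 CPM with colchicine, 10.9 CPM in CKD and 22.9 CPM in control.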

How the data were processed

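RNA came from RNAiso Plus extraction and libraries from the CORALL V2 kit (labels' protocols). GRCm39 and the tools Salmon, STAR and fastp are named per the submitters' processing notes; tool versions, annotation and strand setting are not stated in the labels. The deposited values are whole numbers, taken as the authors' estimated counts (expected counts) per gene, and all 28 values of 1000000 or more were multiples of 10. They were used as deposited in edgeR 4.0.16 (R 4.3.3): filterByExpr (minimum count 10), TMM, 3 group means over 12 libraries, robust quasi-likelihood two-sided F tests and Benjamini-Hochberg adjustment over 17841 genes. Standard errors are the absolute log2 fold change over the root of F. Ratios were taken on log2 CPM (prior count 2) and tested by exact permutation over 70 arrangements. The fit was also run on simulated counts in which few genes were changed, equally many raised and lowered. The simulation had no built-in shift of mitochondrial transcripts, so it cannot show how TMM behaves in CKD against control.

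The 7 members, the 18 gene lists and the tests were chosen with earlier results of these data known. Genes named are the members, up to 3 called genes with the smallest p in each list and comparison, 13 set genes, and the 3 genes most alike in profile to each member, predicted genes left out; the text gives examples, and some of these genes are not reported here. Genes overlapping a member (GENCODE M21) fall outside this rule and were chosen after their values were seen. Alternatives were DESeq2 1.42.0, limma-voom (limma 3.58.1), other scalings and count filters, fits of the compared libraries alone, a replicate block, the labelled adenine percentage as a covariate, and omission of each library in turn. Totals without mitochondrial transcripts, and lists under other scalings, were added after seeing the data.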

Additional observations from a re-analysis of the deposited data

Results flagged for a closer look

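In 48 sets of 4 libraries (7 levels and 9 ratios in 3 groups), Dixon's test at the 95% level singled out 3 libraries, where chance alone singles out about 1 set in 20. Nr1h4 stood at 196.5 CPM in control replicate 4, above the other control libraries. The log2 ratio of Esrra to Esrrg was -1.996 in CKD replicate 3, below the other CKD libraries. The log2 ratio of Ppara to Hnf4a was -1.894 in CKD replicate 2, below the other CKD libraries.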

How the results depend on the processing

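With library totals only, 4 of 7 regulators were called in CKD against control (3 lower, Maf higher), as Maf, Ppara and Ppargc1a stood at 0.317, 0.17 and 0.038 on the log2 scale. Of all 17841 genes, 84.3% were called there, 1850 lower and 13197 higher. Under each other alternative all 7 were called lower in that comparison, beside 37.9 to 74.1% of all genes called in either direction. For colchicine against CKD the count of called genes was 2682, and 1756 with the replicate block, 1008 with the labelled adenine slope read at 2%, 1181 with colchicine replicate 1 as the only colchicine library (its spread assumed like that of the other groups), and 992 to 6401 when 1 library was left out. Leaving out any CKD library or colchicine replicate 2 or 3 lowered it over 1.5 times, to 992 without CKD replicate 3, and leaving out colchicine replicate 1 raised it to 6401. Members called there numbered 5 to 6 when 1 library was left out, beside 5.47 to 35.3% of all genes. Esrra stood at -0.03 with colchicine replicate 1 only, and Esrrg at -0.212 to 0.003 when 1 library was left out, the upper value without colchicine replicate 1. With that replicate only, Esrrg was lower (log2 -0.41; edgeR adjusted p = 0.0176) and Maf and Ppargc1a were not called (log2 -0.27 and -0.37); Maf was also not called in the slope fit (log2 -0.30; edgeR adjusted p = 0.110). Same-numbered libraries did not deviate together (correlations -0.28 to 0.19), so the block is no pairing, and it changed no call of a regulator. Against PPAR alpha targets in place of proximal tubule genes, ratios in CKD against control were -0.279 (Esrra), -0.543 (Hnf4a), -0.404 (Nr1h4), 0.607 (Ppara) and 0.465 (Ppargc1a), those in colchicine against control 0.571 (Esrra), -0.866 (Hnf4a), -0.559 (Nr1h4) and -0.008 (Ppara), and those in colchicine against CKD -0.154 (Nr1h4) and -0.615 (Ppara), the last now called. With 1 library left out, ratios to the tubule genes in colchicine against CKD ran over 0.909 to 1.24 (Esrra), 0.589 to 0.864 (Esrrg), 0.331 to 0.7 (Maf, called without colchicine replicate 4), -0.48 to -0.257 (Ppara, called without colchicine replicate 2) and -0.033 to 0.255 (Nr1h4). The ratio of Esrra to Esrrg then ran over -0.681 to -0.523 in CKD against control, 0.231 to 0.415 in colchicine against CKD and -0.379 to -0.222 in colchicine against control, and that of Ppara to Hnf4a over 1.107 to 1.221 in CKD against control and 0.755 to 0.939 in colchicine against control. Adjusted p-values of ratios move with the other tests of their family, so that Ppara to Hnf4a in colchicine against control, at 0.858 without any 1 CKD library, had an adjusted exact p of 0.0571 with no change in its own libraries. The cause of the other changes was not tested. The lowest regulator counts were 312 to 416, for Esrra in CKD.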

Other observations

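Markers of other kidney cells, from lists chosen with earlier results known, also differed between groups. In CKD against control, 12 of 12 injured tubule markers and 10 of 10 fibroblast markers were higher, 9 of 10 endothelial markers were lower, 7 of 10 markers of the thick ascending limb and distal tubule were lower and 2 higher, and 8 of 10 of the collecting duct were lower and 1 higher, with TMM scaling and edgeR's quasi-likelihood test. With library totals only, 8 endothelial markers were higher and 1 lower, and the distal tubule, collecting duct and podocyte lists had 3, 5 and 0 lower and 4, 3 and 7 higher. In colchicine against CKD, 4 of 10 fibroblast and 3 of 10 endothelial markers were higher, 5 of the 10 distal markers were lower and 1 higher, 4 of the 10 collecting duct markers were lower, and of the 12 injured tubule markers 4 were higher and 2 lower. Podocyte markers, 8 in all, had 4 higher and 2 lower in CKD against control and 2 higher in colchicine against CKD. Over all genes with TMM, 34.1% were higher and 33.4% lower in CKD against control, and 6.79 and 8.24% in colchicine against CKD. The part of these cells in the levels of the regulators was not tested.

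Transcripts that overlap a regulator in GENCODE M21 have counts of their own. Hnf4aos, on the opposite strand of Hnf4a, had 4 to 19 counts per library with colchicine, 5 to 15 in CKD and 61 to 100 in control. Gm42614, on the strand of Ppargc1a, had 34 to 122 counts with colchicine, 27 to 37 in CKD and 30 to 42 in control. The promoter window of Ppara held 74.7% G and C, more than 95.8% of all windows, while those of Nr1h4 and Ppargc1a held 45.7 and 48.7%, beside a median of 52.7% over the table.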
